A study of Loxodonta africana with 12 samples.

Results

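The genes described here signal and repair DNA double-strand breaks and interstrand crosslinks. They comprise the damage kinases and their checkpoint partners, the chromatin factors that mark a break, end joining, homologous recombination, junction-processing enzymes and the Fanconi genes. Members were taken by gene symbol, and 44 of the 55 symbols listed had a row in both deposited tables, out of 16406 gene rows, of which 13743 carry a symbol. BLM, FANCL, NBN, NHEJ1, PRKDC, RBBP8, RNF168, RNF8, TOPBP1, XRCC4 and XRCC6 are not analysed here. All 44 members passed the filter on low counts in every fit.

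The RNA came from African elephant (Loxodonta africana) blood, and the study asked which genes respond to DNA damage in this species. Cells irradiated with 2 Gy were sampled at 24 h and 5 h, and untreated cells at the same times, which makes 4 groups of 3 libraries. The labels name the source only as blood and do not say whether the 3 libraries of a group came from separate elephants, blood draws or cultures. Each p-value below is therefore set against differences between libraries that may be no more than technical.

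Ionizing radiation breaks both strands of DNA. The kinases ATM and ATR sense the damage and activate the effector kinases CHEK2 and CHEK1, while broken ends are either rejoined directly or copied from the sister chromatid by recombination, which dividing cells use after replication. In the Fanconi pathway a multi-subunit core complex adds ubiquitin to the FANCI-FANCD2 pair at crosslinked DNA. Most of this system is regulated on the proteins, by phosphorylation and ubiquitin, so transcript levels show only part of it.

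Depth differed between the groups, with 18022475 to 23805619 counts in irradiated and 22924260 to 37356501 in untreated libraries at 24 h. At 5 h the totals were 31129422 to 38138163 and 31059389 to 35964159 counts. As a check of the labels, the p53 target MDM2 measured 846, 776 and 790 CPM (read counts scaled to a common library size) in irradiated and 121, 134 and 120 CPM in untreated libraries at 24 h, and 1344, 1167 and 1044 CPM against 190, 176 and 198 CPM at 5 h. The pan-leukocyte gene PTPRC lay between 3809 and 5809 CPM in all 12 libraries. Of 22 p53 targets tested, edgeR's quasi-likelihood test called 12 higher and 0 lower after irradiation at 24 h, and 14 higher and 0 lower at 5 h. Lymphocyte markers were lower at 24 h: 13 of 16 B cell markers, 5 of 19 T cell markers and 7 of 11 NK and cytotoxic cell markers were called lower and none higher. Among the other lists at 24 h, 3 of 12 monocyte and macrophage markers were called higher and 1 lower, 2 of 14 neutrophil markers higher, 3 of 10 platelet markers higher, 0 of 8 erythroid markers either way, and 1 of 10 stromal and endothelial markers in each direction. At 5 h the lists gave 2 of 17 B cell markers lower, 1 of 12 monocyte and macrophage markers higher, 1 of 9 platelet markers higher, and no call for T cell, NK, neutrophil, erythroid or stromal markers. Replicate numbers paired the 5 h libraries, and more markers were called with the number as a block. In that fit 15 of 22 p53 targets were higher and 0 lower, 1 of 17 B cell markers was higher and 13 lower, 9 of 19 T cell and 8 of 11 NK and cytotoxic cell markers were lower and 0 higher. Of the monocyte and macrophage markers 6 were higher and 3 lower, of the 13 neutrophil markers 1 higher and 3 lower, of the platelet and the erythroid markers 1 each higher, and of the 8 stromal and endothelial markers 2 lower. No marker of these lists was at 0 in all 12 libraries.

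Levels of different genes were set side by side per length, as the authors' deposited FPKM values averaged over the 12 libraries. The median member had 8.80 FPKM, and the median of all rows was 10.1 FPKM. The end-joining genes were the most abundant role, with a median of 23.7 FPKM over 3 genes. XRCC5, the Ku80 subunit that binds broken ends, had the highest mean of any member over the 12 libraries at 46.1 FPKM. This mean rests on 24 h, where XRCC5 had 66.4 FPKM in irradiated and 72.5 FPKM in untreated cells. At 5 h it had 23.8 and 21.5 FPKM, below FANCE, RMI1, MUS81, RAD50, RAD17 and LIG4 in both conditions. DNA ligase IV (LIG4), which seals the joined ends, had 23.7 FPKM, and DCLRE1C, the Artemis nuclease that trims them, had 18.4 FPKM.

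The other abundant members were spread over the roles. The nuclease subunit MUS81 had 34.3 FPKM, the Fanconi core subunit FANCE 30.1 FPKM, and RMI1, a partner of the BLM helicase, 28.8 FPKM. The BRCA1-A complex subunit BRE had 29.4 FPKM, a mean that rests on 24 h. BRE had 47.3 FPKM in irradiated and 44.7 FPKM in untreated cells at 24 h, and 12.4 and 13.2 FPKM at 5 h. RAD17, which loads the checkpoint clamp, had 28 FPKM, RAD50 of the MRE11 complex 26.98 FPKM and ATM 26.92 FPKM, so close together that their order carries no weight.

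The lowest levels were spread over several roles. CHEK1 had 1.88 FPKM, FANCD2 1.87 FPKM, the helicase BRIP1 1.55 FPKM, BRCA1 0.679 FPKM and RAD54L, a recombination motor protein, 0.437 FPKM. FANCC, a core complex subunit, was lowest at 0.349 FPKM and rested on as few as 8 counts in a library. Partners in one complex could differ widely: FANCI had 23.3 FPKM and FANCD2 1.87 FPKM. At 5 h FANCI had only 6.96 FPKM in irradiated and 5.42 FPKM in untreated cells, and FANCD2 0.537 and 0.766 FPKM. BARD1 had 8.11 FPKM and its partner BRCA1 0.679 FPKM over the 12 libraries. The median coefficient of variation of a member's CPM within a group was 11.6% in irradiated and 9.55% in untreated libraries at 24 h, and 8.35% and 7.91% at 5 h.

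**Figure D1:**
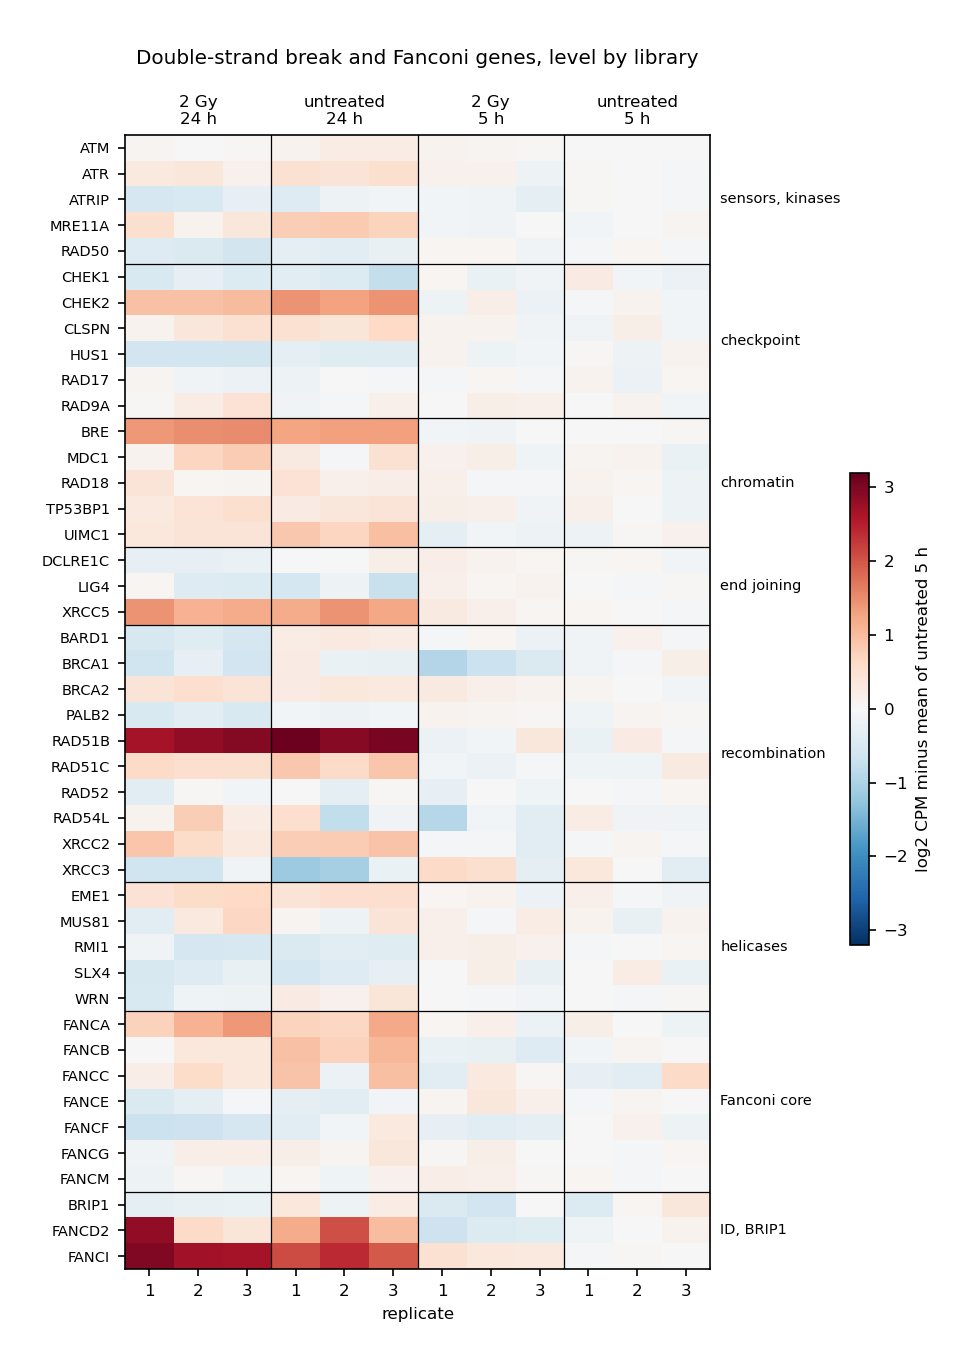
Level of the 44 members (rows, by role) in the 12 libraries (columns, replicate number below). Colour is log2 CPM minus the mean of the 3 untreated 5 h libraries. The strongest colours separate 24 h from 5 h libraries, as for RAD51B and FANCI, and FANCD2 stands out in 1 irradiated library at 24 h.

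At 5 h, edgeR called no member higher or lower in irradiated cells, where 1.12% of the 12969 genes tested were called higher and 0.478% lower. The members' median log2 fold change was -0.01 and that of all genes tested -0.00, with 21 members above 0 and 23 below. At an unadjusted p below 0.05, edgeR gave 2 members higher and 4 lower, against 6.22% and 6.67% of all genes. DESeq2 called FANCI higher and BRCA1 lower, against 1.85% and 1.57% of all genes.

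With the replicate number as a block, edgeR called 4 members higher and 6 lower at 5 h. All genes gave 10.6% higher and 9.92% lower in that fit, so the members' shares of 9.09% and 13.6% were close to the background. Without regard to the pairing, 7 members were higher and 6 lower in all 3 irradiated than in all 3 untreated libraries, where 18.7% of all genes had groups that did not overlap in either direction.

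BRCA1, the ubiquitin ligase and recombination mediator, measured 2.37, 2.80 and 3.26 CPM in irradiated and 4.14, 4.36 and 5.10 CPM in untreated libraries at 5 h. All irradiated values lay below all untreated ones. The log2 fold change was -0.70 ± 0.17 (SE; edgeR adjusted p = 0.11, and 0.00093 with the block). FANCI measured 33.9, 30.4 and 29.9 CPM in irradiated and 23.3, 24.5 and 24.2 CPM in untreated libraries. Every irradiated library was above every untreated one, with a log2 fold change of 0.38 ± 0.08 (edgeR adjusted p = 0.075, and 0.00063 with the block). FANCD2, the partner of FANCI, went the other way, with 2.44, 2.83 and 2.95 CPM in irradiated and 3.51, 3.89 and 4.13 CPM in untreated libraries. The groups did not overlap, and the log2 fold change was -0.50 ± 0.15 (edgeR adjusted p = 0.20, and 0.015 with the block).

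BRIP1, a helicase that binds BRCA1, had 4.15, 3.77 and 5.65 CPM in irradiated and 4.21, 6.02 and 7.38 CPM in untreated libraries. These groups overlapped, and the log2 fold change of -0.39 ± 0.24 was below the threshold only with the block (edgeR adjusted p = 0.56, and 0.042 with the block). The core subunits FANCF (-0.32 ± 0.11; edgeR adjusted p = 0.27, and 0.022 with the block) and FANCE (0.19 ± 0.09; 0.43, and 0.015 with the block) differed in sign. The other calls that depended on the block were small: XRCC5 at 0.16 ± 0.08 (edgeR adjusted p = 0.45, and 0.039 with the block) and RMI1 at 0.15 ± 0.06 (0.37, and 0.043), UIMC1 at -0.21 ± 0.11 (0.48, and 0.036) and ATRIP, the partner of ATR, at -0.18 ± 0.09 (0.44, and 0.048). Beside these values, the proliferation genes, a list of 36 genes of replication and mitosis, had 0 called higher and 1 lower at 5 h, and 2 higher and 19 lower with the block. Their summed level was 549 to 605 CPM in irradiated and 588 to 661 CPM in untreated libraries. The summed B cell markers were 507 to 766 CPM in irradiated and 688 to 898 CPM in untreated libraries at 5 h, T cell markers 525 to 712 and 553 to 800 CPM, and NK and cytotoxic cell markers 228 to 295 and 257 to 370 CPM. With the block, 13 of 17 B cell, 9 of 19 T cell and 8 of 11 NK and cytotoxic cell markers were called lower, and the part of these lists in the members' values at 5 h was not tested.

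The apical kinases were close to their untreated levels at 5 h. ATM had 250, 243 and 236 CPM in irradiated and 234, 229 and 227 CPM in untreated libraries, a narrow gap without overlap and a log2 fold change of 0.07 ± 0.06 (edgeR adjusted p = 0.70). ATR had a log2 fold change of 0.04 ± 0.09, CHEK2 -0.05 ± 0.15, CHEK1 -0.11 ± 0.17, TP53BP1, the chromatin mediator that favours end joining, 0.07 ± 0.11, and MDC1, which binds the phosphorylated histone at breaks, 0.05 ± 0.12 (edgeR adjusted p from 0.85 to 0.93). BRCA2 (0.18 ± 0.09), RAD51C (-0.14 ± 0.14) and FANCA (0.01 ± 0.12) were not called in either edgeR fit.

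**Figure D2:**
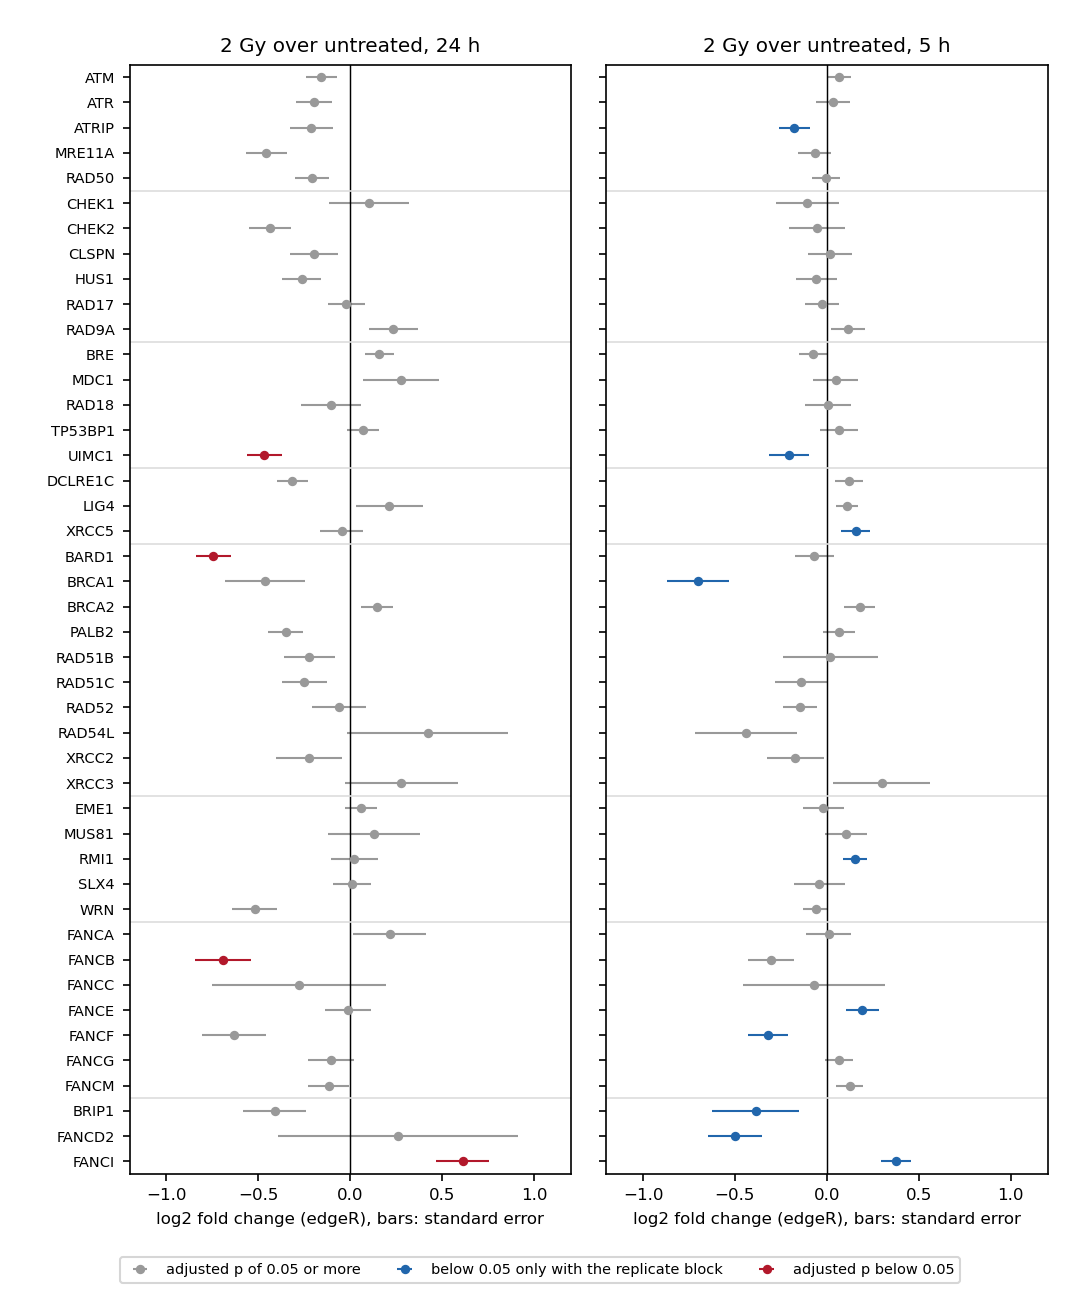
Log2 fold change of 2 Gy over untreated for the 44 members at 24 h (left) and 5 h (right), with standard errors from edgeR, by role from the damage kinases at the top to FANCI at the bottom. Red points are called without a block, blue points at 5 h only with the replicate block. At 24 h 28 of 44 members lie below 0, at 5 h 23.

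At 24 h, irradiated cells had less BARD1, UIMC1 and FANCB RNA and more FANCI RNA than untreated cells, and edgeR called no other member. This was 2.27% of members higher and 6.82% lower, against 1.8% and 4.94% of the 14373 genes tested, so the shares were near the background. The median member stood at -0.11 and the median gene at 0.01 on the log2 scale, and 28 members were below 0. Groups did not overlap for 3 members that were higher and 16 that were lower in irradiated libraries, where 26.2% of all genes did not overlap in either direction. DESeq2 called 1 member higher and 8 lower, or 2.27% and 18.2%, against 4.3% and 7.87% of the genes to which it gave an adjusted p.

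BARD1 is the obligate partner of BRCA1 in its ubiquitin ligase (ENSLAFG00000000546, scaffold 3, 12240442 to 12340709, plus strand, coordinates as given for L_africana_Jul_2009). It measured 13.5, 14.7 and 13.1 CPM in irradiated and 22.5, 23.7 and 22.7 CPM in untreated libraries. The irradiated values were all far below the untreated ones, and the spread within each group was small. The level was 1.68-fold lower, with a log2 fold change of -0.75 ± 0.10 (edgeR adjusted p = 0.0072). BARD1 was called in each of the 6 fits that left out 1 library.

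UIMC1, known as RAP80, brings the BRCA1-A complex to ubiquitin chains at breaks (ENSLAFG00000008765, scaffold 1, 101240994 to 101390586, minus strand). It measured 30.3, 31.6 and 32.0 CPM in irradiated and 43.7, 38.8 and 46.3 CPM in untreated libraries. The groups were well apart, at a log2 fold change of -0.47 ± 0.10 (edgeR adjusted p = 0.035). BRE, a structural subunit of that same complex, had 46.2, 49.6 and 50.3 CPM in irradiated and 42.3, 43.9 and 43.9 CPM in untreated libraries, with a log2 fold change of 0.16 ± 0.08 (edgeR adjusted p = 0.31). The 2 subunits thus had opposite signs, and only UIMC1 was called.

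FANCB is a subunit of the catalytic module of the Fanconi core complex (ENSLAFG00000010051, scaffold 39, 16887990 to 16919115, plus strand). It measured 5.76, 7.25 and 7.31 CPM in irradiated and 11, 9.56 and 11.9 CPM in untreated libraries, without overlap. The log2 fold change was -0.69 ± 0.15 (edgeR adjusted p = 0.042). FANCI (ENSLAFG00000016287, scaffold 28, 17645250 to 17701785, minus strand) measured 188, 153 and 152 CPM in irradiated and 101, 126 and 93.4 CPM in untreated libraries. It was 1.53-fold higher, at 0.61 ± 0.14 on the log2 scale (edgeR adjusted p = 0.0499), the only member called higher. UIMC1 and FANCI stayed below the threshold in 1 of the 6 fits that left out 1 library, the one without untreated replicate 2, and FANCB in none, with adjusted p from 0.054 to 0.15.

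**Figure D3:**
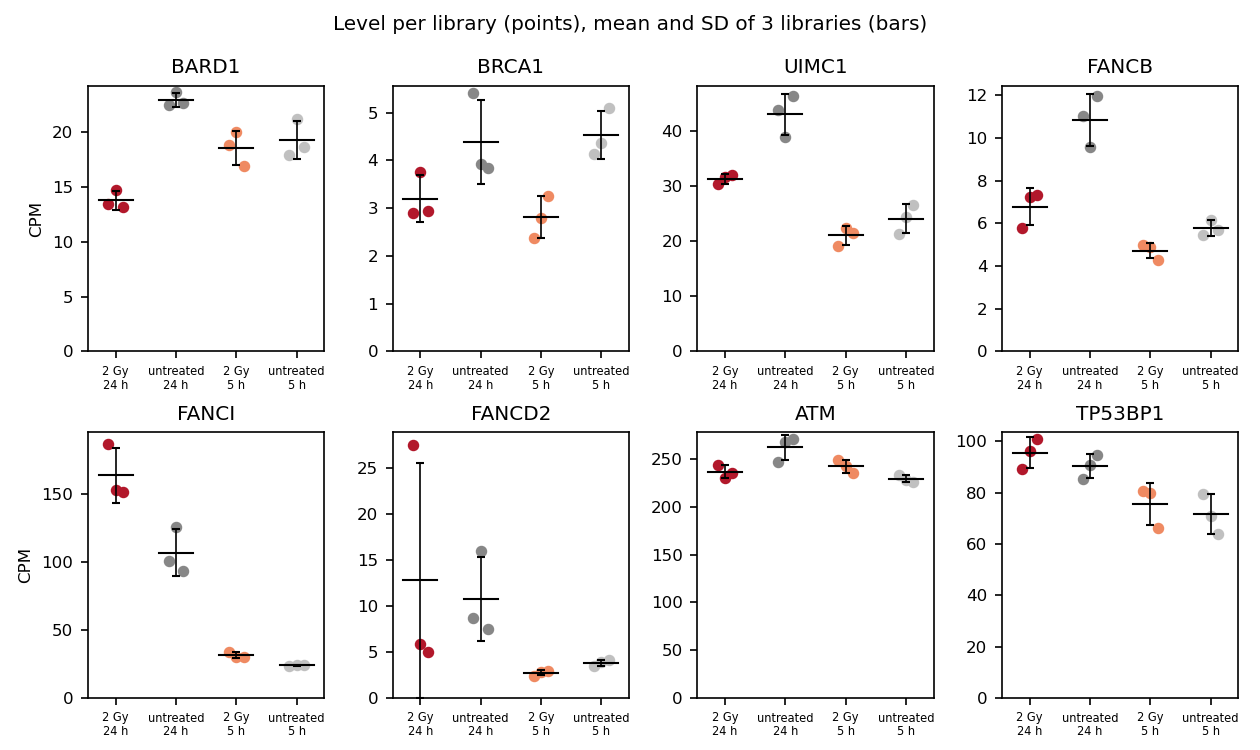
CPM of 8 members in each library (points; 2 Gy left of untreated, 24 h left of 5 h), with the mean and SD of 3 libraries. BARD1, UIMC1 and FANCB show separate groups at 24 h, ATM and TP53BP1 differ little, and FANCD2 has 1 irradiated library at 27.5 CPM.

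Several members lay just outside the threshold at 24 h, all lower in irradiated cells. The helicase WRN had 26.5, 33.5 and 33.0 CPM in irradiated and 44.1, 40.4 and 47.9 CPM in untreated libraries, a log2 fold change of -0.52 ± 0.12 (edgeR adjusted p = 0.051). MRE11A, the nuclease that processes broken ends, had 24.6, 18.8 and 22.2 CPM in irradiated and 29.8, 31.1 and 28.6 CPM in untreated libraries, at -0.46 ± 0.11 (edgeR adjusted p = 0.061). CHEK2 had 8.05, 7.97 and 8.42 CPM in irradiated and 11.4, 10.2 and 11.3 CPM in untreated libraries, at -0.44 ± 0.11 (edgeR adjusted p = 0.068). In all of these the groups did not overlap. DESeq2 called WRN, MRE11A and CHEK2 lower, as well as DCLRE1C (-0.30) and FANCF (-0.61), beside the 4 members called by edgeR.

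The remaining members that are best known from break signalling were not called at 24 h. ATM had 244, 231 and 236 CPM in irradiated and 247, 268 and 272 CPM in untreated libraries, at -0.16 ± 0.08 (edgeR adjusted p = 0.34). All 5 damage sensors and apical kinases had a negative value, between -0.46 and -0.16, and none was called. BRCA1 had 2.90, 3.76 and 2.94 CPM in irradiated and 5.41, 3.93 and 3.84 CPM in untreated libraries, at -0.46 ± 0.22 (edgeR adjusted p = 0.28). The groups of BRCA1 were separate but by a small margin. Its recombination partners stood at -0.35 ± 0.10 for PALB2, which bridges BRCA1 to BRCA2, and 0.14 ± 0.09 for BRCA2 (edgeR adjusted p = 0.081 and 0.40). Values for TP53BP1 (0.07 ± 0.09), MDC1 (0.28 ± 0.21), CHEK1 (0.10 ± 0.22), ATR (-0.20 ± 0.10), RAD51C (-0.25 ± 0.12), FANCA (0.21 ± 0.20), BRIP1 (-0.41 ± 0.17) and XRCC5 (-0.05 ± 0.12) had edgeR adjusted p from 0.23 to 0.85.

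FANCD2 was set by a single library at 24 h. It measured 27.5, 5.86 and 4.97 CPM in irradiated and 8.72, 16 and 7.55 CPM in untreated libraries. Irradiated replicate 1 was above every untreated library and the other 2 irradiated libraries were below every one. The log2 fold change was 0.26 ± 0.65 (edgeR adjusted p = 0.85) and -0.998 without irradiated replicate 1. FANCI was highest in the same 2 libraries, at 188 CPM in irradiated replicate 1 and 126 CPM in untreated replicate 2. LIG4 was too, with 74.8, 54.1 and 53.7 CPM in irradiated and 48.9, 64.1 and 44.0 CPM in untreated libraries.

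Other gene groups moved beside the members at 24 h. The summed B cell markers ran from 473 to 888 CPM in irradiated and from 1092 to 1599 CPM in untreated libraries, T cell markers from 608 to 767 and from 950 to 1011 CPM, and NK and cytotoxic cell markers from 175 to 255 and from 450 to 512 CPM. Much of the spread of the B cell sum within a group came from 1 gene, FCER2 (CD23), named here after its values were seen, with 523, 159 and 113 CPM in irradiated and 341, 854 and 253 CPM in untreated libraries. Monocyte and macrophage markers summed to 7119 to 8290 CPM in irradiated and 4150 to 5092 CPM in untreated libraries. The B cell antigen MS4A1 (CD20) measured 5.30, 3.85 and 6.04 CPM in irradiated and 85.6, 73.4 and 87.9 CPM in untreated libraries. Of the 36 proliferation genes 0 were called higher and 5 lower, and their sum was 615 to 706 CPM in irradiated and 727 to 788 CPM in untreated libraries. In bulk RNA of mixed blood cells, fewer cells of a type and less RNA per cell cannot be told apart, and the part of these shifts in the values of BARD1, UIMC1 and FANCB was not tested.

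Whether irradiation acted differently at the 2 times was tested as an interaction over all 12 libraries. Only BARD1 was called among the members, lower, where 0.125% of 15200 genes were called higher and 0.757% lower. The irradiation effect on BARD1 was -0.75 ± 0.10 at 24 h and -0.07 ± 0.10 at 5 h, and their difference -0.68 ± 0.14 (edgeR adjusted p = 0.045). At 5 h BARD1 measured 18.8, 20.02 and 16.9 CPM in irradiated and 17.9, 21.2 and 18.7 CPM in untreated libraries, which overlapped. The call was lost in 11 of the 12 fits that left out 1 library, all but the one without untreated replicate 2 at 5 h, with adjusted p from 0.048 to 0.16. It was also lost with library totals alone (0.053), with relative log expression scaling (0.066) and without the filter (0.051). For UIMC1, FANCB and FANCI the difference between the times was -0.26 ± 0.15, -0.39 ± 0.19 and 0.23 ± 0.17 (edgeR adjusted p = 0.64, 0.55 and 0.79). DCLRE1C (-0.44 ± 0.12) and PALB2 (-0.42 ± 0.12) were the next members in order of p (edgeR adjusted p = 0.14 and 0.18).

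The change between the 2 times was larger than the irradiation effect for many members. In irradiated cells 18 members were called higher and 8 lower at 24 h than at 5 h, or 40.9% and 18.2%, against 35.3% and 30.6% of 14028 genes. In untreated cells 21 were called higher and 5 lower, or 47.7% and 11.4%, against 32.6% and 30.5% of 13445 genes. The same 16 members were called higher in both conditions, and HUS1, RAD50 and RMI1 were called lower in both. The share of all genes called alike in both conditions was not computed, so this overlap has no background beside it.

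These directions depend on the scaling, because the composition factors (TMM) ran from 1.09 to 1.29 in 24 h libraries and from 0.849 to 0.887 in 5 h libraries. Scaled by library totals alone, the median of all genes stood at 0.44 in irradiated and 0.52 in untreated cells, against 0.10 and 0.11 with TMM. With totals alone 26 members were called higher and 0 lower in irradiated cells, against 49.7% and 18.7% of all genes, and 31 higher and 0 lower in untreated cells, against 52.5% and 16.6%. The members' median exceeded that of all genes by 0.11 in irradiated and 0.16 in untreated cells with TMM, and by 0.11 and 0.17 with totals alone. That gap was 0.03 and 0.02 with all 12 libraries in 1 fit, and -0.06 in both conditions without the filter on low counts. With a stricter filter it was larger, at 0.22 in irradiated and 0.25 in untreated cells. The 2 times were deposited in separate tables, so an effect of time and a difference in how the tables were made cannot be told apart.

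RAD51B, which assists recombination, had the largest difference between the times. It measured 5.49, 6.22 and 6.60 CPM at 24 h and 0.759, 0.820 and 1.11 CPM at 5 h in irradiated libraries. In untreated libraries it measured 7.60, 6.50 and 7.07 CPM at 24 h and 0.746, 1.03 and 0.845 CPM at 5 h. The values at the 2 times were far apart in both conditions, by 7.03-fold in irradiated and 8.23-fold in untreated cells (log2 fold change 2.81 ± 0.21 and 3.04 ± 0.20; edgeR adjusted p = 1.5e-05 and 6.6e-06). At 5 h the gene rested on 20 to 36 counts in a library.

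FANCI was 5.44-fold higher at 24 h than at 5 h in irradiated and 4.58-fold higher in untreated cells (2.44 ± 0.12 and 2.20 ± 0.12 on the log2 scale; edgeR adjusted p = 2.4e-06 and 3.5e-06). Per length, FANCI had 47.8 ± 5.28 FPKM at 24 h and 6.96 ± 0.448 FPKM at 5 h in irradiated libraries, and 33.0 ± 4.21 and 5.42 ± 0.207 FPKM in untreated libraries (SD, n = 3). FANCD2 was higher too, by 2.29 ± 0.62 in irradiated and 1.52 ± 0.27 in untreated cells on the log2 scale (edgeR adjusted p = 0.010 and 0.0014). Without irradiated replicate 1 at 24 h, far above the other 2, the irradiated value was 0.96 ± 0.19 (edgeR adjusted p = 0.0023). The FANCI-FANCD2 partners were thus both higher at 24 h than at 5 h, while BRIP1 did not pass the test (0.15 ± 0.19 and 0.15 ± 0.23). The difference between BRIP1 and these partners was not tested.

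XRCC5 measured 148, 117 and 125 CPM at 24 h and 66.0, 61.0 and 56.4 CPM at 5 h in irradiated libraries, and 125, 148 and 128 against 57.0, 53.8 and 52.4 CPM in untreated libraries. The 2 times did not overlap, with log2 fold changes of 1.15 ± 0.12 and 1.34 ± 0.09 (edgeR adjusted p = 7.5e-05 and 7.6e-06). The end-joining ligase LIG4 had the opposite sign, at -0.30 ± 0.14 in irradiated and -0.42 ± 0.13 in untreated cells, and was called only in untreated cells (edgeR adjusted p = 0.084 and 0.022). Whether these values differ between the conditions is what the interaction tested, and LIG4 was not called there (0.10 ± 0.21).

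Among chromatin and checkpoint genes, BRE was higher at 24 h by 1.59 ± 0.10 in irradiated and 1.34 ± 0.08 in untreated cells. CHEK2 was higher by 1.05 ± 0.17 and 1.43 ± 0.13. UIMC1 was higher by 0.63 ± 0.10 and 0.88 ± 0.12, and TP53BP1 by 0.40 ± 0.11 and 0.38 ± 0.10 (edgeR adjusted p of these 4 genes from 4.8e-06 to 0.011). CHEK1 was not called, at -0.25 ± 0.19 and -0.48 ± 0.22. Of the Fanconi core genes, FANCA was higher by 1.13 ± 0.17 and 0.91 ± 0.16 and FANCB by 0.58 ± 0.16 and 0.95 ± 0.14. RAD51C, which also assists recombination, was higher by 0.73 ± 0.13 and 0.82 ± 0.16, and BRCA2 by 0.32 ± 0.10 and 0.34 ± 0.09, while BRCA1 stood at 0.25 ± 0.21 and -0.00 ± 0.20 and was not called. ATM stood at 0.02 ± 0.09 in irradiated cells and was called higher in untreated cells at 0.23 ± 0.08 (edgeR adjusted p = 0.84 and 0.031).

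RAD50 was called lower at 24 h with TMM, at -0.44 ± 0.10 in irradiated and -0.25 ± 0.08 in untreated cells, HUS1, a subunit of the checkpoint clamp, at -0.51 ± 0.13 and -0.32 ± 0.12, and RMI1 at -0.47 ± 0.13 and -0.36 ± 0.08. With library totals alone the untreated values were 0.17 for RAD50, 0.10 for HUS1 and 0.06 for RMI1, the opposite sign. MRE11A, in the same complex as RAD50, was called higher at 24 h in both conditions. It measured 24.6, 18.8 and 22.2 CPM at 24 h and 16.5, 16.1 and 17.7 CPM at 5 h in irradiated libraries. In untreated libraries it measured 29.8, 31.1 and 28.6 CPM at 24 h and 16.4, 17.4 and 18.4 CPM at 5 h. BARD1 was called in opposite directions with TMM, lower in irradiated (-0.37 ± 0.12) and higher in untreated cells (0.29 ± 0.10; edgeR adjusted p = 0.023 and 0.037). With totals alone the irradiated value of BARD1 was -0.03 and not called (edgeR adjusted p = 0.84). The irradiated call was also lost with a stricter filter (0.068) and without irradiated replicate 2 at 5 h (0.062). PALB2 (-0.47 ± 0.10) and DCLRE1C (-0.32 ± 0.09) were called lower in irradiated cells, and DCLRE1C took the opposite sign with totals alone (0.02). Beside these values, the summed neutrophil markers ran from 959 to 1130 CPM at 24 h and from 2822 to 3174 CPM at 5 h in irradiated libraries, and from 510 to 725 and from 2885 to 3363 CPM in untreated libraries. Of the 36 proliferation genes 9 were called higher and 1 lower in irradiated cells and 14 higher and 1 lower in untreated cells. The part of either list in the members' values was not tested.

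Of the remaining members, some were called between the times in both conditions, some in 1 alone and some in neither. EME1, the partner of MUS81, was higher by 0.62 ± 0.12 in irradiated and 0.53 ± 0.10 in untreated cells, the recombination factor XRCC2 by 0.84 ± 0.21 and 0.88 ± 0.15, and CLSPN, the adaptor between ATR and CHEK1, by 0.35 ± 0.14 and 0.55 ± 0.13. MDC1 (0.54 ± 0.18) and RAD54L (0.89 ± 0.32) were called higher and XRCC3 (-0.73 ± 0.28) and FANCE (-0.41 ± 0.13) lower in irradiated cells alone. XRCC3 was called in 2 and FANCE in 5 of the 6 fits that left out 1 library. Both calls were lost with totals alone (edgeR adjusted p = 0.24 and 0.66) and with a stricter filter (0.074 and 0.055). ATR (0.51 ± 0.08), WRN (0.30 ± 0.09) and FANCG (0.25 ± 0.10) were called higher and the nuclease scaffold SLX4 (-0.38 ± 0.13) lower in untreated cells alone, where SLX4 took the opposite sign with totals alone (0.04). The interaction called none of these genes. ATRIP, CHEK1, RAD17, RAD9A, RAD18, RAD52, BRCA1, MUS81, FANCC, FANCF, FANCM and BRIP1 were called in none of the 5 comparisons by edgeR without a block.

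**Figure D4:**
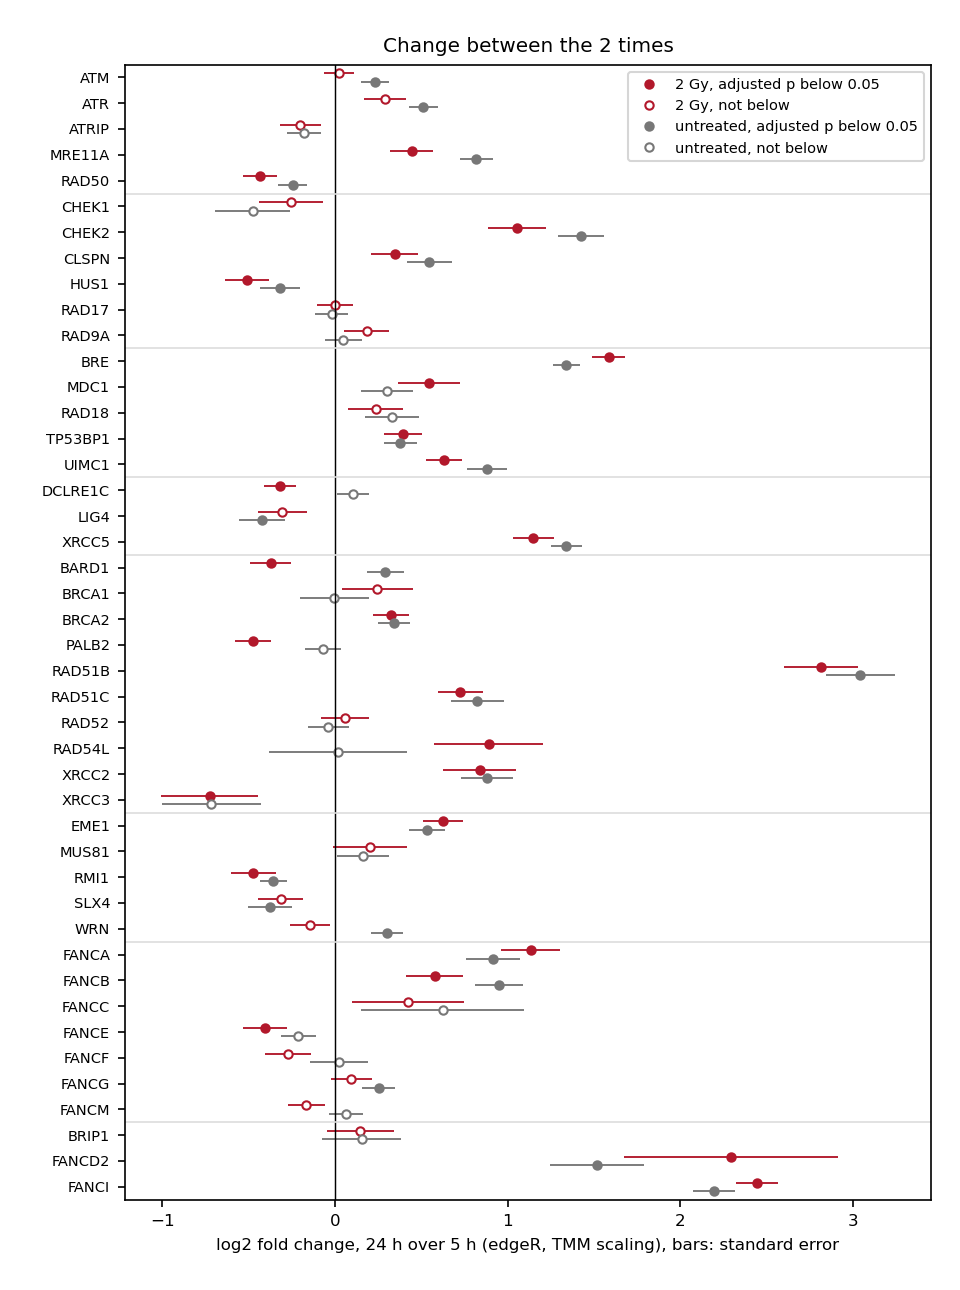
Log2 fold change of 24 h over 5 h for the 44 members in irradiated (red) and untreated (grey) cells, with standard errors from edgeR under TMM scaling. Filled points have an adjusted p below 0.05. RAD51B and FANCI lie far to the right in both conditions. The irradiated point of FANCD2 is 0.96 instead of 2.29 without irradiated replicate 1 at 24 h. BARD1 lies on opposite sides of 0, and its irradiated value is -0.03 with library totals alone.

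A separate list of 114 other genes of break and crosslink repair, which holds no member, had 96 rows. At 24 h 4 of the 96 were called higher and 8 lower in irradiated cells, against 1.8% and 4.94% of all genes. At 5 h 5 were higher and 0 lower, against 1.12% and 0.478%. Their median log2 fold change was -0.07 at 24 h and -0.00 at 5 h. With the replicate block the 5 h counts were 13 higher and 8 lower, against 10.6% and 9.92% of all genes. The interaction called 0 of the 96 in either direction, against 0.125% and 0.757%. DNA2, a nuclease that resects broken ends, measured 17.9, 22.7 and 21.2 CPM in irradiated and 7.23, 7.31 and 7.30 CPM in untreated libraries at 24 h, and 28.4, 29.2 and 25.4 CPM against 5.45, 5.80 and 6.43 CPM at 5 h. Its log2 fold change was 1.49 ± 0.12 at 24 h and 2.22 ± 0.10 at 5 h (edgeR adjusted p = 0.0013 and 3.6e-05).

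RNF169, which competes for ubiquitin marks at breaks, rose by 1.12 ± 0.12 at 24 h and 0.67 ± 0.08 at 5 h, and PPM1D, a phosphatase that turns off damage signalling and is also in the p53 list, by 0.59 ± 0.08 and 0.57 ± 0.07 (edgeR adjusted p of both genes from 0.0028 to 0.0080). PARP1, a sensor of strand breaks, fell by 0.71 ± 0.09 on the log2 scale at 24 h and TIPIN, a replication fork factor, by 0.70 ± 0.10 (edgeR adjusted p = 0.0059 and 0.010). BRIX1, which is in the list but is known for ribosome assembly, was among the 8 called lower. The interaction called none of the genes named here from that list.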

How the data were processed

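Per the labels' protocols, libraries were made with a stranded kit from column-purified total RNA depleted of ribosomal RNA. The authors deposited 1 table per time. Each holds raw read counts per gene, on which all tests were run. FPKM values, which the authors deposited beside them, are scaled by gene length and library size and served only to compare levels between genes. The sources used here name no aligner, counting program or strand setting. Per the file headers, coordinates refer to L_africana_Jul_2009, without saying whether they count from 0 or 1. No member overlaps another row. The 12 columns of regularized log values were left out.

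Tests used edgeR 4.0.16 (R 4.3.3) with TMM and filterByExpr, and quasi-likelihood p-values were adjusted by Benjamini-Hochberg over all genes tested, with a threshold of 0.05. Each comparison used its 6 libraries without a block, and the interaction all 12. Standard errors come from the F statistic. Printed CPM share 1 TMM scaling over the 12 libraries. Alternatives were DESeq2 1.42.0, other scalings and filters, a replicate block and leaving out each library. The script was tested on simulated data.

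Same-numbered libraries, as the labels number them, deviated together at 5 h (correlations of 0.37, 0.33 and 0.57 over 12969 genes), so block values stand beside the 5 h results.

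Members and gene lists were chosen with earlier results of these data known. Values are given for members with an adjusted p below 0.05 and for a fixed set of break-signalling and Fanconi genes. The plan set at most 8 called members per comparison and direction, and more are given for the comparisons between the times. WRN, MRE11A, LIG4, PALB2, BRE, DCLRE1C and FANCF were singled out at 24 h or in the interaction after their values were seen. Lists cover other repair genes, proliferation, p53 targets and markers of B, T, NK, monocyte, neutrophil, platelet, erythroid and stromal cells. Some results are not reported here.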

Additional observations from a re-analysis of the deposited data

Results flagged for a closer look

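The irradiation effect on BARD1 differed between the times in the test of the difference itself. It was -0.75 ± 0.10 at 24 h and -0.07 ± 0.10 at 5 h on the log2 scale, a difference of -0.68 ± 0.14 (edgeR interaction over 12 libraries, adjusted p = 0.045). All 3 irradiated libraries were below all 3 untreated libraries at 24 h, and the groups overlapped at 5 h. The call was lost in 11 of the 12 fits that left out 1 library. It was also lost with library totals alone (edgeR adjusted p = 0.053), relative log expression scaling (0.066) and no filter (0.051). It was present with DESeq2, with a stricter filter and with the replicate block (edgeR adjusted p = 0.026). Replicate numbers did not pair the 24 h libraries, so the block value carries little weight. B cell markers differed in the same test, with 11 of 17 called lower, and their part in the value of BARD1 was not tested.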

How the results depend on the processing

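At 5 h the count of members called went from 0 to 10 with the replicate block and 2 with DESeq2, and over all genes from 207 to 2655 and 444. Leaving out each library gave 0 members and 86 to 191 genes, with member medians from -0.036 to 0.036. At 24 h the 4 members became 1 and the 968 genes 707 with the replicate block. DESeq2 gave 9 members and 1715 genes. With library totals alone the counts were 8 and 1260, and with all 12 libraries in 1 fit 10 and 1670. Leaving out each library at 24 h gave 1 to 3 members, 293 to 1061 genes and medians from -0.17 to -0.081, and the median was -0.19 with totals alone. FANCI lost its call with relative log expression scaling (adjusted p = 0.0504), without the filter (0.061) and with the block (0.059), and UIMC1 (0.071) and FANCB (0.072) with the block. Replicate numbers did not pair the 24 h libraries (correlations of 0.12, -0.40 and 0.65), so a call lost there says nothing of the size of an effect.

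For 24 h against 5 h the members' medians in irradiated cells moved to 0.15 with DESeq2, 0.15 with relative log expression scaling, 0.56 with totals alone, 0.13 without the filter and 0.29 with a stricter filter, and in untreated cells to 0.22, 0.22, 0.69 and 0.20 under the first 4 of these. Leaving out each library gave 19 to 26 members, 8338 to 9940 genes and medians from 0.11 to 0.20 in irradiated cells. In untreated cells it gave 19 to 24 members, 7219 to 8387 genes and medians from 0.16 to 0.26. In the interaction, the 134 genes became 268 with the block and 362 with DESeq2, the 1 member became 0 with relative log expression scaling, totals alone and no filter, and the median was -0.18 with totals alone. Leaving out each library there gave 0 to 1 members, 76 to 168 genes and medians from -0.18 to -0.048.

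Some signs changed with totals alone. Between the times 5 called decreases did so: DCLRE1C in irradiated cells (-0.32, and 0.022 with totals alone), and in untreated cells RMI1 (-0.36, and 0.060), SLX4 (-0.38, and 0.039), RAD50 (-0.25, and 0.17) and HUS1 (-0.32, and 0.10). Values that were not called changed sign too, FANCA at 5 h to -0.0041 and TP53BP1 at 24 h to -0.0066. FANCD2 at 24 h was -0.12 with the block, and from -0.998 to 0.66 when 1 library was left out. Leaving out 1 library also changed the sign of ATR (-0.016 to 0.12), CHEK1 (-0.20 to 0.025), CHEK2 (-0.19 to 0.0095), MDC1 (-0.060 to 0.13), TP53BP1 (-0.013 to 0.14), RAD51C (-0.22 to 0.010) and FANCA (-0.071 to 0.095) at 5 h and of CHEK1 (-0.020 to 0.21) and XRCC5 (-0.16 to 0.036) at 24 h, none of them called. The cause of these changes was not tested. Counting error limits FANCC, RAD54L and RAD51B, whose lowest libraries hold 8, 16 and 20 counts.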
